A study of Mus musculus with 17 samples.

Results

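The 10 genes described here are those of the inflammasome and of the IL-1 family in Kupffer cells (KCs), the macrophages resident in liver sinusoids. They are the cytokine genes Il1b, Il1a and Il18, the antagonist gene Il1rn, the sensor genes Nlrp3 and Nlrc4, the adaptor gene Pycard, the caspase genes Casp1 and Casp4, and the pore gene Gsdmd. They were taken by symbol from a list of names, drawn up with earlier results of these data known, and are 10 of the 25124 genes listed in each deposited table. All 10 passed the filter on low values in all 3 tables.

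KCs sorted from mouse liver were measured by RNA-seq in 17 samples. TIM4+CD206+ and TIM4+CD206hi KCs came from untreated, tumour-free livers (3 samples each) and from livers 2 weeks after pancreatic tumour cells had been injected into the portal vein (3 samples each). KCs without tumour came from Id3f/f mice (3 samples), in which both Id3 alleles are floxed and no Cre is present, and from Clec4fCreId3f/f mice (2 samples), in which a Cre driven from the KC gene Clec4f deletes Id3. Cre was carried by the deleted group only, so the Cre allele and the loss of Id3 cannot be told apart. Sex-linked genes also separated these groups, so sex cannot be told apart from them either. The ages of these mice are not given in the sources used here, and the labels do not say whether replicates came from separate animals. For the Id3 samples the study counts mice and describes the controls as littermates, while for the samples of the tumour comparisons the p-values measure a spread that may be technical. Values are the deposited ones, on a log2 scale. They have the features of a regularized log transformation, which draws the differences of genes with few reads towards 0. Each table was normalised on its own, so levels were compared within a table only.

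An inflammasome is a cytosolic complex in which a sensor such as NLRP3 or NLRC4 recruits the adaptor ASC, the product of Pycard, and through it caspase-1. Active caspase-1 cleaves pro-IL-1β and pro-IL-18 into their secreted forms and cleaves gasdermin D, whose amino-terminal part forms pores in the plasma membrane. Caspase-11, the product of Casp4, binds lipopolysaccharide in the cytosol and cleaves gasdermin D directly. IL-1α signals through the same receptor as IL-1β, and the receptor antagonist encoded by Il1rn occupies that receptor without signalling. Transcripts of Il1b and Nlrp3 are induced by Toll-like receptor signals, whereas IL-18 and its processing machinery are made constitutively by many macrophages. RNA levels do not show whether an inflammasome was assembled.

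Il1a lies at chr2:129299610-129309972 and Il1b at chr2:129364570-129371139, both on the minus strand and 54597 bases apart, and Il1rn lies at chr2:24336853-24351494 on the plus strand (GRCm38, the mm10 assembly named in the labels). Casp1 (chr9:5298517-5307265) and Casp4 (chr9:5308828-5336783) are neighbours on the plus strand with 1562 bases between them. Il18 is at chr9:50554827-50581840 on the plus strand. Nlrp3 is at chr11:59541568-59566956 and Gsdmd at chr15:75862327-75867408, both on the plus strand, and Nlrc4 (chr17:74425438-74459142) and Pycard (chr7:127989708-127993867) are on the minus strand. Genes on the other strand overlap Il18 (Bco2 and Tex12), Il1a (Gm14023), Il1b (Il1bos) and Pycard (Gm45205). The amplification kit does not mark the strand, so reads from sequence that these pairs share cannot be told apart. On its own strand Nlrc4 overlaps CT033749.1.

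ID3 has no DNA-binding domain and pairs with E proteins, which bind E-boxes of the sequence CANNTG. The start regions of the 5 members that were lower after Id3 deletion are given for that reason, from 250 bases before to 50 bases after the start in RefSeq on GRCm38, 5′ to 3′ on the strand of the gene. Capitals mark matches to CANNTG, which reads alike on both strands.
Il1rn, first of 3 starts (chr2:24336610-24336909, plus): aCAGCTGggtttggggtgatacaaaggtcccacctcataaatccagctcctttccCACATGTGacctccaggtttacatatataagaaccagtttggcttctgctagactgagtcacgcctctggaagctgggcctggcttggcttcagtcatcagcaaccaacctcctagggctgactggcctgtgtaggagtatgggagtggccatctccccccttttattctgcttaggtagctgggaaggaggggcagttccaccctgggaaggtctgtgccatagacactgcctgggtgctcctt
Il18 (chr9:50554450-50554749, plus): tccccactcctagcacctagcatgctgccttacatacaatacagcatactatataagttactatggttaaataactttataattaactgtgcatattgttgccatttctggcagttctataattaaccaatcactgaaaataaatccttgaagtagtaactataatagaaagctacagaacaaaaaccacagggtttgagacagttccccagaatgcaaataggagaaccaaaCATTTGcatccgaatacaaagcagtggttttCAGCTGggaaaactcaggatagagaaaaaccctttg
Il1b (chr2:129371090-129371389, minus): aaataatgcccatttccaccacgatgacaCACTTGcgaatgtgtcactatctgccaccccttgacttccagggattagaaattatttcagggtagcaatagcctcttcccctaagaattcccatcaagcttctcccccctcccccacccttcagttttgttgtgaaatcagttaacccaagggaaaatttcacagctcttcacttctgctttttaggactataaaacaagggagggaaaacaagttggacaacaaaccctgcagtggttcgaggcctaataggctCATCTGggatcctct
Casp4, first of 2 starts (chr9:5308599-5308898, plus): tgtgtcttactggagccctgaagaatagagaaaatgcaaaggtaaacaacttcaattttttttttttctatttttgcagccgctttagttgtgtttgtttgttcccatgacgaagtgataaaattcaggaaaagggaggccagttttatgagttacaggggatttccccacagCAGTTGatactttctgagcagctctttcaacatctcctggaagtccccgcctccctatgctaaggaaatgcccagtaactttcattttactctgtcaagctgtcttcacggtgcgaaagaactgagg
Casp1 (chr9:5298267-5298566, plus): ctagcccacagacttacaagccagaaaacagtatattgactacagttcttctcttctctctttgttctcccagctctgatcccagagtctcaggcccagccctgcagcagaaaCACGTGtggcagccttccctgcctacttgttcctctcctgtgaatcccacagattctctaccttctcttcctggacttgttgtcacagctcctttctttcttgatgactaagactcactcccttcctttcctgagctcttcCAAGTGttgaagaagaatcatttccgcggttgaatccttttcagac
The first Il1rn window held 3 such matches, 2 of them overlapping, and its later windows 1 each. The Il18, Il1b and Casp1 windows held 2 each and the Casp4 window 1. Among members not called after Id3 deletion, the Nlrc4 window held 4, that of Il1a 3, that of Pycard 2 and those of Nlrp3 0 or 1. The number of matches thus does not set the called members apart. A start region was matched for 9 of the 10 members (13 windows, none for Gsdmd), and 12 of the 13 held CANNTG, against 72.3% of all 32851 promoters. The windows of Casp4 overlap each other and share their match, as do the later windows of Il1rn, so the 13 are not separate observations. The E-box form CAGCTG was present in 3 of the 13 windows, against 16.3% of all promoters. These were the first window of Il1rn and those of Il18 (14 bases after the start) and Pycard, which did not pass the test after Id3 deletion. The Casp4 window held 3 matches to the κB motif on either strand, of which the first 2 overlap, and 8.46% of all promoters held at least 1. A TATAAA box was found 31 bases before the start of Il1b on the forward strand, as in 8.32% of all promoters. These matches describe the letters of the windows and say nothing of binding.

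Levels between members were compared per kilobase of exon, on the log2 scale. In tumour-free TIM4+CD206+ KCs Il1b was the highest member, at a mean of 12.65, and its samples lay above those of Gsdmd (12.02). Gsdmd, Pycard (11.93) and Il18 (11.90) overlapped in their samples. Casp1 (10.48) and Il1rn (10.44) followed and overlapped each other, then Il1a (9.81), Nlrp3 (7.50) and Casp4 (7.18), of which the last 2 overlapped. Nlrc4 was lowest, at 5.35, and did not overlap with Casp4. The cytokine, adaptor and pore transcripts were above those of both sensors.

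In tumour-free TIM4+CD206hi KCs the first 5 members, Casp1 (11.92), Il1a (11.81), Gsdmd (11.66), Il1b (11.57) and Il18 (11.56), could not be ordered, since each overlapped with its neighbour in the order. Pycard (10.59), Il1rn (10.23) and Casp4 (9.60) came next. Il1rn overlapped with both of the others, while Pycard lay above Casp4 in all samples. Nlrp3 (7.71) and Nlrc4 (7.45) were the lowest and overlapped each other. In Id3f/f KCs Il18 was highest (12.07), Casp1 was second (11.68), and Gsdmd (10.97) and Il1b (10.85) overlapped. Below them came Pycard (10.58), Il1a (10.37), Il1rn (9.62), Casp4 (8.44), Nlrp3 (6.02) and Nlrc4 (5.57), with no overlap between neighbours. Nlrc4 had the lowest mean level per kilobase in each of the 6 groups. The exon length of Pycard differs between annotations, so that its place in the order is less certain than that of the others.

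**Figure D1:**
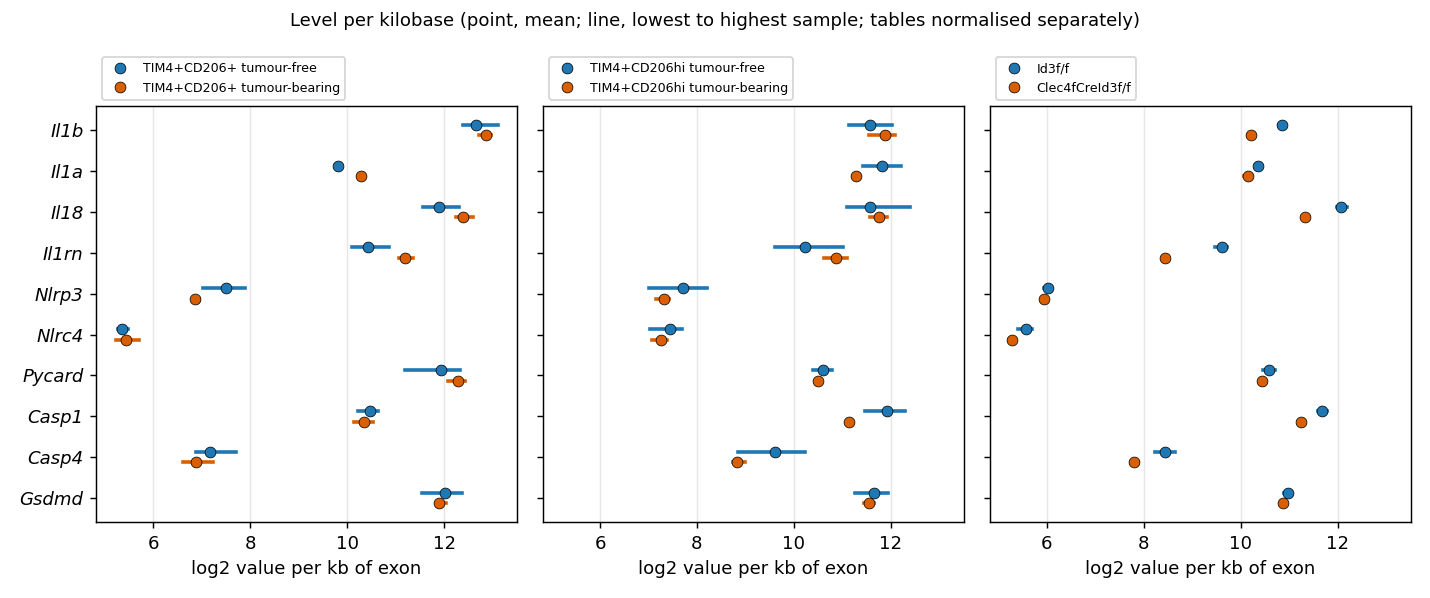
Mean level of each member per kilobase of exon (log2, x axis) in the 2 groups of each table, with lines from the lowest to the highest sample. Levels can be compared within a panel only. Nlrc4 has the lowest mean in every panel, at 5.35 in tumour-free TIM4+CD206+ KCs and 5.57 in Id3f/f KCs. In both groups of TIM4+CD206hi KCs its samples overlap with those of Nlrp3.

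The first comparison asked what changes in the main KC subset, TIM4+CD206+, when the liver carries tumour. None of the 10 members passed an adjusted p of 0.05 in limma, against 3.54% of all 13233 genes tested (2.55% called higher with tumour and 0.998% lower), and 3 of 10 had an unadjusted p under 0.05, against 17.2% of all genes. The members with the lowest adjusted p were Il1rn (0.104), Il1a (0.140) and Nlrp3 (0.242). Of the differences, 6 were above 0 and 4 below, with a median of 0.15 against 0.02 over all genes tested. Groups did not overlap for 3 of the 10 members, 2 of them with all tumour-bearing samples higher, against 23.4% of all genes without overlap, 12.9% higher and 10.5% lower with tumour.

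The value of Il1rn, which encodes the IL-1 receptor antagonist, was 11.79, 11.52 and 12.29 in the 3 tumour-free samples and 12.51, 12.78 and 12.61 in the 3 tumour-bearing samples (deposited log2 values, as for all members below). Every tumour-bearing sample lay above every tumour-free one. The difference was 0.77 ± 0.21 (SE), a ratio of 1.70 on this scale, with an adjusted p of 0.104 in limma. The labels do not pair the samples. In a limma fit that paired them by replicate number (the block), the adjusted p was 0.0354, and there Il1rn was the one member that passed. Over all settings tried its adjusted p ran from 0.0354 to 0.294.

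Il1a, the gene of the alarmin IL-1α, had values of 10.80, 10.79 and 10.78 without tumour and 11.33, 11.26 and 11.22 with tumour. The spread within each group was far smaller than the gap between them. The difference was 0.48 ± 0.15 (SE), with an adjusted p of 0.140 in limma. Il1b had the values 12.90, 13.55 and 12.83 without tumour and 13.41, 13.34 and 13.16 with tumour. Its groups overlapped, tumour-free replicate 2 being the highest of the 6, and the difference was 0.21 ± 0.21 (adjusted p 0.701, limma). With 1 sample left out it ran from 0.08 to 0.44, the highest without tumour-free replicate 2 (adjusted p 0.0715). Il18 had the values 11.86, 11.61 and 12.36 against 12.64, 12.29 and 12.37. Here the groups overlapped by tumour-free replicate 3 alone, and the difference was 0.49 ± 0.22 (adjusted p 0.297, limma).

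Nlrp3, the sensor of ion flux and membrane damage, was the member with the lowest difference in this subset. Its values were 9.91, 9.04 and 9.61 without tumour and 8.95, 8.84 and 8.84 with tumour, and the groups did not overlap. The difference was -0.64 ± 0.25 (SE), with an adjusted p of 0.242 in limma. Tumour-free replicate 2 was the lowest of its group for Nlrp3, and also for Pycard, at 12.29 against 13.42 and 13.36, and for Gsdmd, at 12.38 against 13.21 and 12.99. Without that sample Nlrp3 passed the test (-0.88, adjusted p 0.0365, limma, with up to 0.515 over the other settings), and the difference of Pycard went from 0.36 to 0.00.

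For Pycard the tumour-bearing values were 13.52, 13.17 and 13.46 (adjusted p 0.610, limma), and for Gsdmd 12.87, 12.70 and 12.67 (difference -0.12, adjusted p 0.870). The sensor Nlrc4, which responds to flagellin and type III secretion proteins bound by NAIPs, lay between 7.24 and 7.70 in all 6 samples (adjusted p 0.919). Casp1 lay between 10.71 and 11.22 and Casp4 between 7.14 and 8.23. Both overlapped between the groups, with differences of -0.13 and -0.29 (adjusted p 0.807 and 0.715). The difference of Casp4 was -0.03 once its highest sample, tumour-free replicate 1, was left out.

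**Figure D2:**
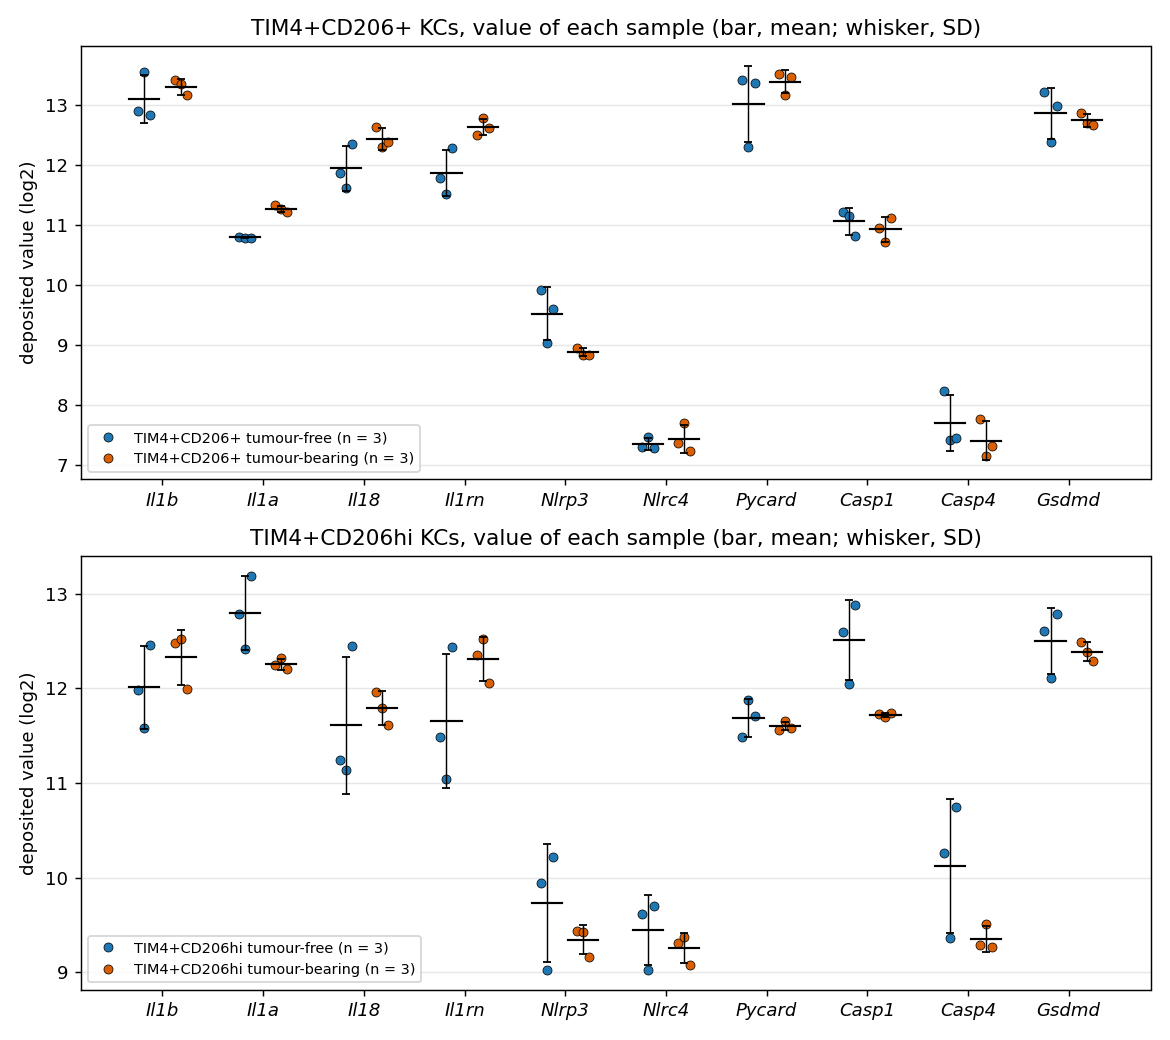
Deposited log2 value of each member (y axis) in every sample of TIM4+CD206+ KCs (top) and TIM4+CD206hi KCs (bottom), tumour-free in blue and tumour-bearing in orange, with the mean and SD of 3 samples. In TIM4+CD206+ KCs the groups of Il1rn, Il1a and Nlrp3 are apart, in TIM4+CD206hi KCs those of Il1a and Casp1, and the tumour-free samples are the more widely spread ones, with a median SD over the 10 members of 0.39 and 0.43.

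The same question was asked of the minor subset, TIM4+CD206hi. Again no member passed in limma, where 7.23% of 14561 genes did (5.21% higher with tumour and 2.03% lower), and 2 of 10 had an unadjusted p under 0.05, against 21.1% of all genes. Differences were above 0 for 3 members and below 0 for 7, with a median of -0.15 against 0.03 over all genes. Casp1 and Il1a were the 2 members whose groups did not overlap, with all tumour-bearing samples lower in both. Of all genes tested 30.7% were without overlap, 15.6% higher and 15.2% lower with tumour.

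Casp1, the protease common to canonical inflammasomes, had values of 12.60, 12.04 and 12.88 without tumour and 11.73, 11.69 and 11.73 with tumour. The tumour-bearing samples were all below the lowest tumour-free one. The difference was -0.79 ± 0.23 (SE), a ratio of 0.580, with an adjusted p of 0.0947 in limma. Its neighbour Casp4 had the values 10.26, 9.36 and 10.75 against 9.28, 9.51 and 9.27. Only tumour-free replicate 2 reached into the range of the tumour-bearing samples, and the difference was -0.77 ± 0.35 (adjusted p 0.260, limma).

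Il1a had the values 12.78, 12.41 and 13.19 without tumour and 12.24, 12.32 and 12.21 with tumour. The order of its groups was opposite to that in TIM4+CD206+ KCs. The difference was -0.54 ± 0.21 (SE), with an adjusted p of 0.215 in limma. The other cytokine genes overlapped between the groups. Il1b had the values 11.99, 11.59 and 12.46 against 12.47, 12.52 and 11.99 (difference 0.32 ± 0.26, adjusted p 0.504, with 0.11 to 0.54 when 1 sample was left out), and Il18 the values 11.24, 11.14 and 12.45 against 11.97, 11.79 and 11.62 (0.18 ± 0.35, adjusted p 0.780).

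Il1rn had the values 11.49, 11.05 and 12.44 without tumour and 12.35, 12.52 and 12.06 with tumour. Tumour-free replicate 3 lay among the tumour-bearing samples, and the difference was 0.65 ± 0.35 (SE, adjusted p 0.329, limma). That sample also held the highest Il18 of its table. Without it Il1rn passed the test, at 1.04 (adjusted p 0.031, with up to 0.604 over the other settings). Nlrp3 had the values 9.95, 9.02 and 10.22 against 9.44, 9.43 and 9.17, and tumour-free replicate 2 was the lowest of the 6 (difference -0.39 ± 0.32, adjusted p 0.504). Nlrc4 lay between 9.02 and 9.69, Pycard between 11.48 and 11.88 and Gsdmd between 12.11 and 12.78, with differences of -0.19, -0.09 and -0.11 and adjusted p-values from 0.652 to 0.773.

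Tumour-free replicate 2 was the lowest sample of its group for 9 of the 10 members in TIM4+CD206hi KCs, Pycard being the exception. Without it 4 members passed the test in limma, all lower with tumour: Casp1 (-1.02, adjusted p 0.00499), Casp4 (-1.15, 0.0095), Il1a (-0.73, 0.0245) and Nlrp3 (-0.74, 0.0303). Over the other settings their adjusted p-values reached 0.303, 0.555, 0.506 and 0.804. Over all genes the number called went from 1053 to 3653 without that sample.

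Markers of other cells differed between the same groups. Epithelial tumour markers passed the test with higher values in 11 of 11 genes tested in both subsets, with summed log2 levels of 10.92 to 11.88 without and 15.38 to 15.59 with tumour in TIM4+CD206+ KCs, and of 11.01 to 11.42 against 15.79 to 15.90 in TIM4+CD206hi KCs. Neutrophil markers were called higher for 5 of 12 genes in each subset, with summed levels of 13.57 to 14.26 against 15.22 to 15.32 in TIM4+CD206+ KCs and 13.03 to 13.83 against 14.37 to 14.97 in TIM4+CD206hi KCs. Monocyte markers were called higher for 4 of 10 genes in each. Hepatocyte markers were called lower for 6 of 10 genes in each subset, with summed levels of 14.56 to 15.17 against 13.85 to 14.16 in TIM4+CD206+ KCs and 14.76 to 15.24 against 13.51 to 13.79 in TIM4+CD206hi KCs. B cell markers were called lower for 4 of 5 and 2 of 7 genes tested, and in TIM4+CD206hi KCs so were the stellate cell markers Dcn and Lrat of 8. Endothelial markers summed to 18.21, 17.55 and 18.13 without tumour and 16.90, 17.13 and 17.22 with tumour in TIM4+CD206hi KCs, where Clec4g, Oit3 and Tek of 10 genes were called lower. Among the tumour-free samples that sum was lowest in replicate 2, the sample lowest for every member but Pycard. That replicate was also the lowest for the summed KC, neutrophil, T and NK cell and stellate cell markers. For the summed monocyte, dendritic cell, epithelial tumour and B cell markers it was the highest. The summed KC markers, Clec4f and Timd4 among them, were above those of every other cell type, at 19.87 to 20.47 in TIM4+CD206hi and 20.29 to 21.17 in TIM4+CD206+ KCs. In the latter Timd4, Adgre1 and Csf1r of 12 were called lower with tumour. In bulk RNA, fewer cells of a type and less RNA per cell cannot be told apart, and the part of other cells in the members' differences was not tested.

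**Figure D3:**
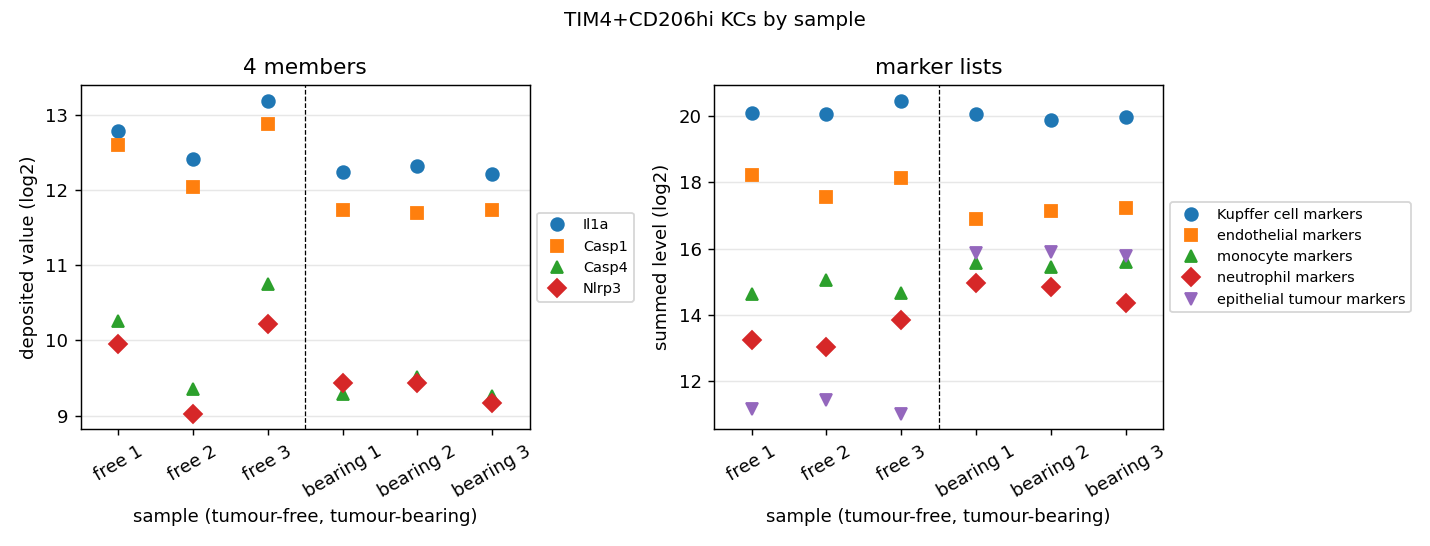
TIM4+CD206hi KCs by sample, with the deposited log2 values of Il1a, Casp1, Casp4 and Nlrp3 (left) and the log2 of the summed levels of 5 marker lists (right). Endothelial markers range from 17.55 to 18.21 in tumour-free samples and from 16.90 to 17.22 in tumour-bearing ones. Tumour-free replicate 2 is the lowest of the tumour-free samples for them, for KC and neutrophil markers and for the 4 members. It is the highest of them for monocyte and epithelial tumour markers.

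The remaining comparison asked what differs in KCs without tumour between Clec4fCreId3f/f and Id3f/f samples, which sex-linked genes also separated. Id3 itself was 12.59, 12.46 and 12.82 in Id3f/f and 9.83 and 9.82 in Clec4fCreId3f/f KCs, a difference of -2.80 ± 0.11 (SE, adjusted p 1.4e-06, limma). Of the 10 members 5 fell and none rose, Il1rn, Il18, Il1b, Casp4 and Casp1, where 6.44% of all 12833 genes tested were called, 3.37% lower and 3.08% higher. At an unadjusted p under 0.05 there were 7 members, against 23.6% of all genes. All 10 differences were below 0, with a median of -0.37 against 0.00 over all genes. Groups did not overlap for 9 members, all lower after deletion, where 41.9% of all genes were apart, 21.7% lower and 20.2% higher.

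Il1rn fell most among the members. Its values were 11.15, 11.10 and 10.90 in Id3f/f and 9.90 and 9.86 in Clec4fCreId3f/f KCs. The gap between the groups was larger than the spread within either. The difference was -1.17 ± 0.10 (SE), a ratio of 0.445, with an adjusted p of 0.000676 in limma, the 11th lowest p of all genes tested.

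Il18, the highest member per kilobase in both genotypes, had values of 12.09, 12.03 and 12.23 against 11.35 and 11.39. Both deleted samples lay well below the controls. It fell by 0.75 ± 0.09 (SE), to a ratio of 0.596, with an adjusted p of 0.00328 in limma. Il1b had the values 11.36, 11.27 and 11.24 against 10.71 and 10.59, and fell by 0.64 ± 0.09 (adjusted p 0.00618, limma). Il1a differed less, with values of 11.35, 11.34 and 11.35 against 11.06 and 11.20. Its groups were apart, but the difference of -0.22 ± 0.09 did not pass the test (adjusted p 0.158).

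Both caspase genes fell. Casp4 had the values 8.76, 8.96 and 9.17 in Id3f/f and 8.26 and 8.40 in Clec4fCreId3f/f KCs, a difference of -0.63 ± 0.13 (SE, adjusted p 0.0218, limma). For Casp1 the values were 12.23, 12.19 and 12.37 against 11.86 and 11.78, a difference of -0.44 ± 0.09 (adjusted p 0.0236). In both genes the gap between the nearest samples of the 2 genotypes was wider than the range of the deleted pair. For Casp4 that gap was narrower than the range of the controls, and for Casp1 it was wider.

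The sensor, adaptor and pore genes did not pass the test. Nlrp3 was 8.04, 7.96 and 8.12 against 7.97 and 7.97, and it was the one member whose groups overlapped (difference -0.07 ± 0.09, adjusted p 0.725). Nlrc4 was 7.59, 7.70 and 7.40 against 7.33 and 7.21 (-0.29 ± 0.10, adjusted p 0.122). Pycard was 11.81, 11.66 and 11.57 against 11.50 and 11.56, and Gsdmd 11.87, 11.84 and 11.74 against 11.73 and 11.69, so that for both the nearest samples of the 2 genotypes almost met. Their differences were -0.15 ± 0.10 and -0.10 ± 0.09 (adjusted p 0.398 and 0.528).

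**Figure D4:**
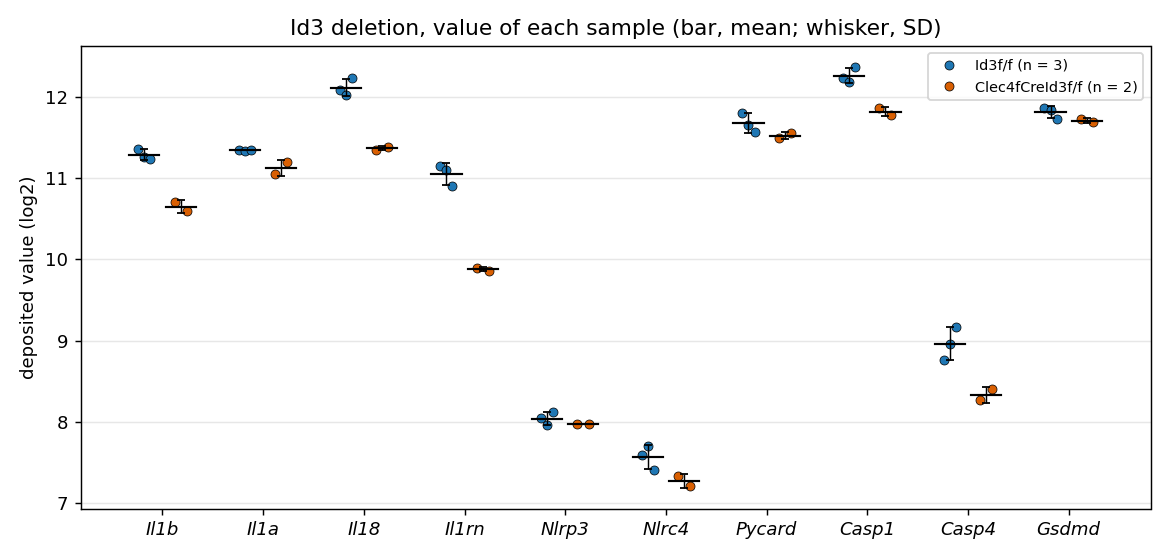
Deposited log2 value of each member (y axis) in every Id3f/f (blue, 3 samples) and Clec4fCreId3f/f (orange, 2 samples) sample, with the mean and SD. Il1rn lies between 10.90 and 11.15 in the controls and at 9.90 and 9.86 after deletion, and the groups of Nlrp3 overlap.

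With 1 of the 2 Clec4fCreId3f/f samples left out, Il1rn was the one member that still passed (adjusted p up to 0.0304), the lone sample being assumed to vary like the controls, and adjusted p-values were 0.101 to 0.112 for Il18, 0.112 to 0.162 for Il1b, 0.248 to 0.252 for Casp1 and 0.175 to 0.279 for Casp4, while 17 or 19 of all genes were called in place of 827. Sex-linked genes also separated the genotypes, with Xist higher by 3.44 and a difference of -2.44 for Ddx3y in Clec4fCreId3f/f KCs, so that sex and genotype cannot be told apart. Monocyte markers summed to 13.70 to 13.98 in Id3f/f and 12.99 to 13.08 in Clec4fCreId3f/f KCs, with 2 of 8 genes tested called lower, Plac8 and Ms4a4c. Neutrophil markers summed to 11.03 to 11.15 against 10.72 to 10.91, with Mmp9 called lower of 8 tested and Ly6g listed with no reads. KC markers summed to 19.78 to 19.84 against 19.88 to 19.91, of which 4 were called higher and 2, Clec4f and Folr2, lower. Of 10 endothelial markers Pecam1 was called higher and Clec4g lower, with summed levels of 13.69 to 13.96 against 13.75 to 13.77. The part of sex and of other cells in the members' differences was not tested.

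**Figure D5:**
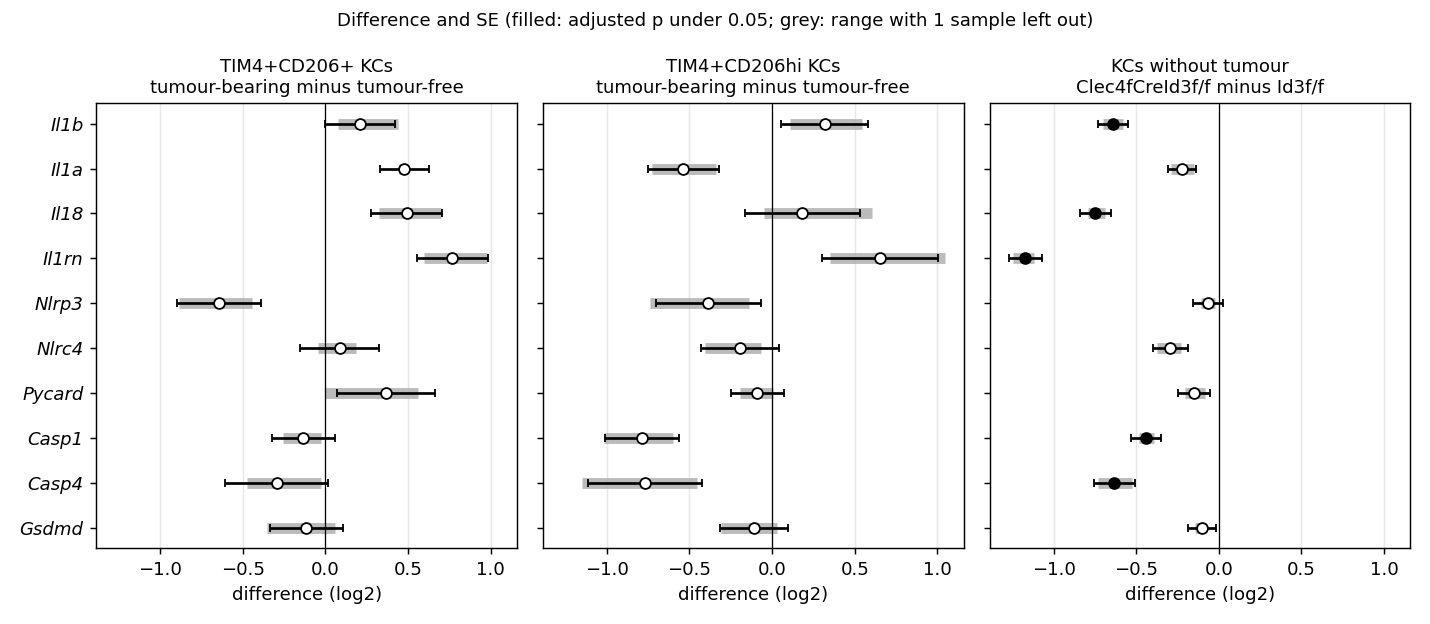
Difference between group means (log2, x axis) of each member in the 3 comparisons, with its SE, filled where the adjusted p is under 0.05. Grey bars give the range with 1 sample left out. The 5 filled points are all in the Id3 comparison, from -1.17 for Il1rn to -0.44 for Casp1, and the tumour comparisons have points on both sides of 0. The median SD of the members was 0.099 in Id3f/f samples, against 0.393 and 0.43 in the tumour-free samples, so the comparisons differ in power.

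Other genes of the pathway were looked at as 6 lists with 67 genes. In TIM4+CD206+ KCs 2 of 59 genes tested were called (3.39%, against 3.54% of all genes), and in TIM4+CD206hi KCs 1 of 61 (1.64%, against 7.23%). Il1r2, a decoy receptor that binds IL-1 without signalling, rose with tumour in both subsets, by 2.76 ± 0.22 (SE, adjusted p 0.000412, limma) and by 2.88 ± 0.35 (adjusted p 0.00288). It is also abundant in neutrophils, whose markers were higher in the same samples, as were monocyte and epithelial tumour markers. The part of other cells in the rise of Il1r2 was not tested. Txnip, a thioredoxin-binding protein that has been linked to NLRP3, fell in TIM4+CD206+ KCs, with a difference of -0.96 ± 0.17 (adjusted p 0.0222). In TIM4+CD206hi KCs its difference was -0.72 ± 0.25 (adjusted p 0.164), and whether the subsets differ was not tested. The ligand gene Il1f9, which encodes IL-36γ, had means of 6.28 against 7.51 (adjusted p 0.061) and of 6.39 against 7.52 (adjusted p 0.178), and was not called. Other uncalled genes were nearer the threshold in each subset. They were Irf1 in TIM4+CD206+ KCs (-0.92 ± 0.20, adjusted p 0.0502, limma) and Nlrp6 in TIM4+CD206hi KCs (1.30 ± 0.33, adjusted p 0.0609).

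After Id3 deletion 5 of 55 genes tested were called (9.09%, against 6.44% of all genes). Ninj1, which encodes the protein that ruptures the plasma membrane late in lytic death, fell by 0.86 ± 0.08 (SE, adjusted p 0.000706, limma), and Irf1, an interferon-induced transcription factor, fell by 0.53 ± 0.10 (adjusted p 0.0167). Irak3, an inhibitory kinase of IL-1 and Toll receptor signalling, rose by 0.83 ± 0.12 (adjusted p 0.00618), Nod1, a peptidoglycan sensor, by 0.51 ± 0.10 (adjusted p 0.022) and Ripk3, a kinase of necroptosis, by 0.33 ± 0.08 (adjusted p 0.0423). Il18bp, the soluble binding protein of IL-18, had means of 15.38 and 15.10 (difference -0.28 ± 0.08, adjusted p 0.0603), and was not called. Uncalled genes about as near the threshold were Naip6 (0.30 ± 0.08, adjusted p 0.0592, limma), Nfkbia (-0.35 ± 0.10, 0.0612) and Mefv (-0.32 ± 0.09, 0.0624). Il1f6 and Il1f8, which encode IL-36α and IL-36β, and Il1f10 and Gsdmc had no reads in any table.

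Over all 17 samples, with values centred on the mean of each table and group differences left in, Il18 was most like Plgrkt (Pearson r = 0.948), Sirpb1b (0.933), AI662270 (0.915), Clec4n (0.908) and Rps9 (0.907) among 12222 genes. Of the members Il1rn was nearest to Il18, with r = 0.887. For Il1b the nearest genes were H3f3a (0.819), Rcbtb2 (0.812), Cytip (0.768), Sc5d (0.761) and Msmo1 (0.749), and Il1rn reached 0.709. The samples share tables, sorts and the group differences described above, so these coefficients are a description with no test.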

How the data were processed

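Sorted mouse KCs of 17 samples were grouped by the condition in their labels. RNA was amplified with SMART-Seq v4 and sequenced as paired ends, and the authors aligned reads with STAR 2.7.10a, counted them on genes with HTSeq and used DESeq2, per the labels and the study's methods. The deposited log2 values are named as counts and TPM, but they have the features of regularized log values, made separately for the 3 tables, and keep no depth per sample. Summed on the linear scale they give 34100000 to 39700000 per TIM4+CD206+ sample, 32600000 to 35100000 for TIM4+CD206hi and 21800000 to 24000000 for the Id3 table. The labels name mm10, whereas the study's methods give GRCm39 or mm10, with GENCODE M30 for the counting.

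A test for counts was planned only for raw counts. Genes reaching the value of 10 counts in as many samples as the smaller group holds (3, or 2 for Id3) were tested by limma (version 3.58.1, R 4.3.3) using a mean-variance trend, no covariate and Benjamini-Hochberg adjustment over all genes tested, and called at an adjusted p under 0.05. The script was tested on simulated data, in which 200 genes were changed by 1.5 on the log2 scale. It recovered 59% of them for TIM4+CD206+ KCs, 46.5% for TIM4+CD206hi KCs and 99% for the Id3 comparison. The comparisons thus differ in power, and their numbers of called members cannot be set against each other. Fold changes are on the deposited log2 scale. Levels per kilobase used the exons of GENCODE M21 within the RefSeq gene, another release than that counted. All 10 members are named, and so are every called gene of the pathway lists and some uncalled ones. Marker lists are given by counts and summed levels, with some called genes named. The members and lists were chosen with earlier results of these data known. Samples with the same replicate number correlated in their deviations from the group means in TIM4+CD206+ KCs (r = 0.35, 0.56 and 0.15). With 3 samples per group this cannot establish a pairing. The labels state none and the main fit used none, so the replicate block is an alternative setting only. Alternatives were no filter, a mean of at least 50 counts, the replicate block, no trend, median centring, quantile normalization and each sample left out. Tables and plots were made with Python 3.11.15, pandas 2.3.3, numpy 2.4.6 and matplotlib 3.10.9.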

Additional observations from a re-analysis of the deposited data

Results flagged for a closer look

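Il1a was the one member whose tumour-bearing samples all lay on one side of the tumour-free ones in TIM4+CD206+ KCs and all on the other side in TIM4+CD206hi KCs. The differences were 0.48 and -0.54. The 2 tables were normalised separately, so the difference between the subsets was not tested, and with all samples in the fit the change passed the adjusted threshold in neither subset. Without tumour-free replicate 2 it passed in TIM4+CD206hi KCs (-0.73, adjusted p 0.0245, limma).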

How the results depend on the processing

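Over the 10 members and 3 comparisons, 323 of 350 alternative values kept their direction and their side of the threshold, 10 lost the call with the same direction, 9 gained it and 8 changed sign. The members called in TIM4+CD206+ KCs were 1 with the replicate block (Il1rn) and 0 to 1 with a sample left out, and 0 otherwise. In TIM4+CD206hi KCs they were 0 to 4 with a sample left out and 0 otherwise, and after Id3 deletion 1 to 6 with a sample left out, 6 with the block (Nlrc4 added, -0.37, adjusted p 0.00445 in limma) and 5 otherwise. Leaving out Id3f/f replicate 1 took Casp1 to an adjusted p of 0.0737, and leaving out Id3f/f replicate 2 took Casp4 to 0.0635. All genes called in TIM4+CD206+ KCs were 1026 with the block and 228 to 1018 with a sample left out, the most without tumour-free replicate 2. In TIM4+CD206hi KCs they were 600 with the stricter filter and 579 to 3653 with a sample left out. After Id3 deletion they were 477 without the filter, 2089 with the block and 17 to 1850 with a sample left out, and with median centring 328 higher and 550 lower in place of 395 and 432. Quantile normalization gave 664 higher and 518 lower genes in TIM4+CD206hi KCs in place of 758 and 295. Samples with the same replicate number did not correlate positively in their deviations there (r = -0.05, -0.13 and -0.05) or in the Id3 table (r = -0.07 and -0.10). Left-out samples gave ranges up to 0.1837 for Nlrc4, up to 0.5615 for Pycard and down to -0.3541 for Gsdmd in TIM4+CD206+ KCs, and up to 0.6015 for Il18 and down to -0.1922 for Pycard and -0.3082 for Gsdmd in TIM4+CD206hi KCs. For Il1b they ran from 0.08 to 0.44 and from 0.11 to 0.54, and for Casp4 in TIM4+CD206+ KCs from -0.47 to -0.03, with no change of sign. The others changed sign at their other end: in TIM4+CD206+ KCs Nlrc4 with quantile normalization (-0.0334) and without tumour-bearing replicate 2 (-0.0461), Pycard without tumour-free replicate 2 (-0.0011) and Gsdmd without tumour-free replicate 1 (0.0594), and in TIM4+CD206hi KCs Il18 without tumour-free replicates 1 (-0.0011) or 2 (-0.0516), Pycard without tumour-free replicate 2 (0.006) and Gsdmd without tumour-free replicate 3 (0.0305). The block changed no other call of a member. The causes were not tested. Depth per sample is unknown, and 2 or 3 samples per group limit the precision.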
